A study of Homo sapiens with 6 samples.

Results

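The transcripts followed here were FOS, FOSB, FOSL1, FOSL2, JUN, JUNB, JUND, EGR1, ATF3 and IER2, chosen by gene symbol as transcripts of the AP-1 transcription factor and of the immediate early response. All 10 were found among the 60649 gene rows of the count table, and all 10 were among the 22038 genes that passed the filter on low counts. Ovarian cancer OVCAR5 cells, an established epithelial line, had been transduced with a lentivirus that carried METTL3 or with empty-vector lentivirus, and both stable lines had then been selected with puromycin. METTL3 is the catalytic subunit of the complex that writes N6-methyladenosine (m6A) on mRNA. Sequencing covered 3 METTL3-overexpressing and 3 vector control libraries, called METTL3 and vector replicates 1 to 3 here, all grown in serum-containing medium and with no drug named in the labels. The series design instead names the controls as parental cells. Neither the labels nor the methods say whether the replicates were separate cultures, so p-values measure the spread between libraries, which may be technical.

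AP-1 is a dimer of basic leucine zipper proteins. Jun proteins pair with each other or with Fos proteins, Fos proteins need a Jun partner, and the dimer binds short DNA sites in the promoters and enhancers of genes for growth, migration and matrix turnover. Immediate early genes are switched on by serum, growth factors and stress through MAP kinases, without new protein synthesis, and their transcripts are short-lived, often because AU-rich elements in the 3′ UTR speed their decay. In epithelial cancer lines FOSL1 is known as a subunit of migrating, mesenchymal-like cells, whereas FOS and EGR1 respond quickly to a change of medium.

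The libraries held from 96633925 to 125463386 counts. METTL3 itself was at 152, 165 and 175 CPM (TMM-scaled counts relative to library size) in METTL3 replicates 1, 2 and 3, compared with 80.6, 68.6 and 71.6 CPM in vector replicates 1, 2 and 3. These groups did not overlap, and 6.62% of the exonic bases of METTL3 lie opposite exons of another gene. The ratio of means was 2.23 (p = 0.1 by a two-sided exact permutation test, which with 3 libraries a group cannot go lower). The log2 fold change of METTL3 was 1.16 (edgeR adjusted p = 0.072), and in replicates 2 and 3 alone it was 1.28 (edgeR adjusted p = 1.59e-08). DESeq2, the method of the study, gave 1.18 over all 6 libraries (DESeq2 adjusted p = 4.48e-10). Replicate 1 of each group stood apart over all genes. A chi-square of counts over its degrees of freedom came to 12.6 and 13.1 for replicates 2 and 3 of a group, and from 112 to 250 where replicate 1 was one of the pair, so the fitted changes of the named genes are also given for replicates 2 and 3 alone. Of 8 epithelial markers, all exceeded 1 CPM, with summed levels of 7857 to 8865 CPM with METTL3 and 6318 to 9760 CPM with the vector. Markers of other cells stayed under 1 CPM in every library for 5 of 7 fibroblast genes, 4 of 6 leukocyte genes and 4 of 5 endothelial genes. Summed fibroblast levels were 17.6 to 20.1 CPM with METTL3 and 9.19 to 20.3 CPM with the vector, mostly COL1A1, with leukocyte sums of 35.9 to 47.9 and 44.5 to 64.2 CPM, mostly LYZ, and endothelial sums of 1.65 to 1.88 and 0.991 to 1.55 CPM. No listed marker was at 0 in all 6 libraries, and the part of other cells in the results was not tested.

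Most of the members have compact transcripts, with a median length of 2107 bases against 3278. In their canonical GENCODE transcripts, JUN, JUNB and JUND had a single exon, as did 2.37% of the 14873 protein-coding genes tested, and no member had more than 4 exons, against a median of 9. The median GC content of the members was 56.9%, compared with 49.3% over those genes, and JUND at 69.9% was richer in GC than 99.5% of them. FOSB, JUNB, JUND and IER2, 4 of the 10, lie on chromosome 19. GGAC, the core letters of the commonest m6A context, occurred 4.22 times per kilobase of transcript in the median member and 3.80 times in the median gene. JUNB had the densest GGAC, with 16 copies in 1830 bases (8.74 per kilobase), and ATF3 the sparsest, with 5 copies in 1940 bases. The letters alone do not show that a site is methylated.

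AU-rich elements are built from the pentamer ATTTA. At least 1 copy stood in the 3′ UTR of 9 of the 10 members and of 70.8% of protein-coding genes with a 3′ UTR. FOS held 5 copies in 806 bases, a density above that of 95.2% of genes, whereas IER2 held none in 1053 bases. The median density was 1.62 copies per kilobase for the members and 1.59 for protein-coding genes. The windows below hold the densest run of ATTTA, in capitals. They are given for the 3 members that passed edgeR's test in replicates 2 and 3 alone. FOSL2 is added, as its long 3′ UTR held 9 copies. The FOS window carries a pair of overlapping copies, and the JUN and EGR1 windows carry 1 each.
FOS 3′ UTR, bases 633 to 662: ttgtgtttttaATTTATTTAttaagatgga
JUN 3′ UTR, bases 710 to 739: ttccagaaaggatATTTAagaaaatacaat
EGR1 3′ UTR, bases 982 to 1011: actgaaaatgtaaATTTAtaaatatattca
FOSL2 3′ UTR, bases 3900 to 3929: aattgacATTTAttttattATTTAttttaa

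Promoters were read from RefSeq (GRCh38.p14), which matched 9 of the 10 members, as the 250 bases before the transcription start. The letters TGACG, the core of the cAMP response element, were found on either strand in 8 of the 9, against 21.2% of 35116 promoters. The variant TGACATCA, known in the JUN promoter as a site for Jun and ATF proteins, stood in JUN and ATF3 and in 2.37% of all promoters. The full palindrome TGACGTCA, which contains TGACG, stood in JUND and in 1.65% of promoters, and the AP-1 site TGANTCA in none of the 9 and in 6.57% of promoters. EGR1 carried 2 CArG boxes, the site of serum response factor, which 1.16% of promoters hold. Sites further upstream than these 250 bases were not searched in any member. The promoters of JUN, EGR1 and FOS are shown because these members passed edgeR's test in replicates 2 and 3 alone, where 15.2% of all genes did. Each was lower with METTL3 there and higher in the replicate 1 pair. Capitals mark TGACATCA, CArG boxes and TGACG on either strand.
JUN promoter, chr1:58784048-58784297, minus strand: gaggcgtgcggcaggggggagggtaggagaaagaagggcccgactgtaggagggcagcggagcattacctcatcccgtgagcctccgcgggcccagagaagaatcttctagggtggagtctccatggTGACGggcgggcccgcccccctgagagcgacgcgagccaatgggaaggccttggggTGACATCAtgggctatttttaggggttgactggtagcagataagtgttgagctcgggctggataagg
EGR1 promoter, chr5:138465229-138465478, plus strand: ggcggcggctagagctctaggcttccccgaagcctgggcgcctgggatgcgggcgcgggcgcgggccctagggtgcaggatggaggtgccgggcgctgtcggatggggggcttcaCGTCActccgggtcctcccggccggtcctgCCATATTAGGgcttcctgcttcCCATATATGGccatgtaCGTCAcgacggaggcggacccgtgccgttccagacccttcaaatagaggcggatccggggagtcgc
FOS promoter, chr14:75278578-75278827, plus strand: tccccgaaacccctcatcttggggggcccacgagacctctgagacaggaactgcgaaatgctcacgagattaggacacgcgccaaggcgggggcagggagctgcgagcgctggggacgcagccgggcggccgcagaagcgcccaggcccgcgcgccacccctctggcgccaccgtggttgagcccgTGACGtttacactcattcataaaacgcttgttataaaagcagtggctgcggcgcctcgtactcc

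Levels of different genes were compared per length, as CPM per kilobase of all exons of the gene (FPKM). In vector control cells FOSL1 led at 134 ± 53.9 FPKM (SD, n = 3). FOSL2, JUN, JUND and JUNB followed at 27.9 ± 2.30, 26.5 ± 13.1, 25.2 ± 4.81 and 25.1 ± 0.984 FPKM (SD, n = 3 each), and these 4 could not be ordered beyond their spread. IER2, a small nuclear protein of the growth factor response, was at 11.7 ± 1.13 FPKM and EGR1 at 7.63 ± 3.07 FPKM (SD, n = 3 each). FOS was at 2.51 ± 0.146, ATF3 at 1.06 ± 0.222 and FOSB at 0.126 ± 0.0461 FPKM (SD, n = 3 each). With METTL3, FOSL1 led again at 131 ± 47.3 FPKM (SD, n = 3), and JUND (30.1 ± 7.97) and JUNB (27.1 ± 2.97) stood between FOSL2 (33.7 ± 1.93) and JUN (23.6 ± 3.69 FPKM, SD, n = 3 each), while the lower 5 kept their order.

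The Fos family of these cells was thus mainly FOSL1 transcript. FOSL1 made up 83.2% and 84.6% of the summed FPKM of the 4 Fos family genes in vector replicates 2 and 3, and 81.4% and 82.7% in METTL3 replicates 2 and 3. In replicate 1 its share was 71.9% with the vector and 65.5% with METTL3, while FOSL2 made up 25.3% and 30.7%. FOS itself supplied between 0.844% and 3.64% of the family in any library. The Jun family was more even. JUN made up 39.8% and 37.8% of it in vector replicates 2 and 3, 33.1% and 34.0% in METTL3 replicates 2 and 3, and 20.9% and 21.7% in vector and METTL3 replicate 1.

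**Figure D1:**
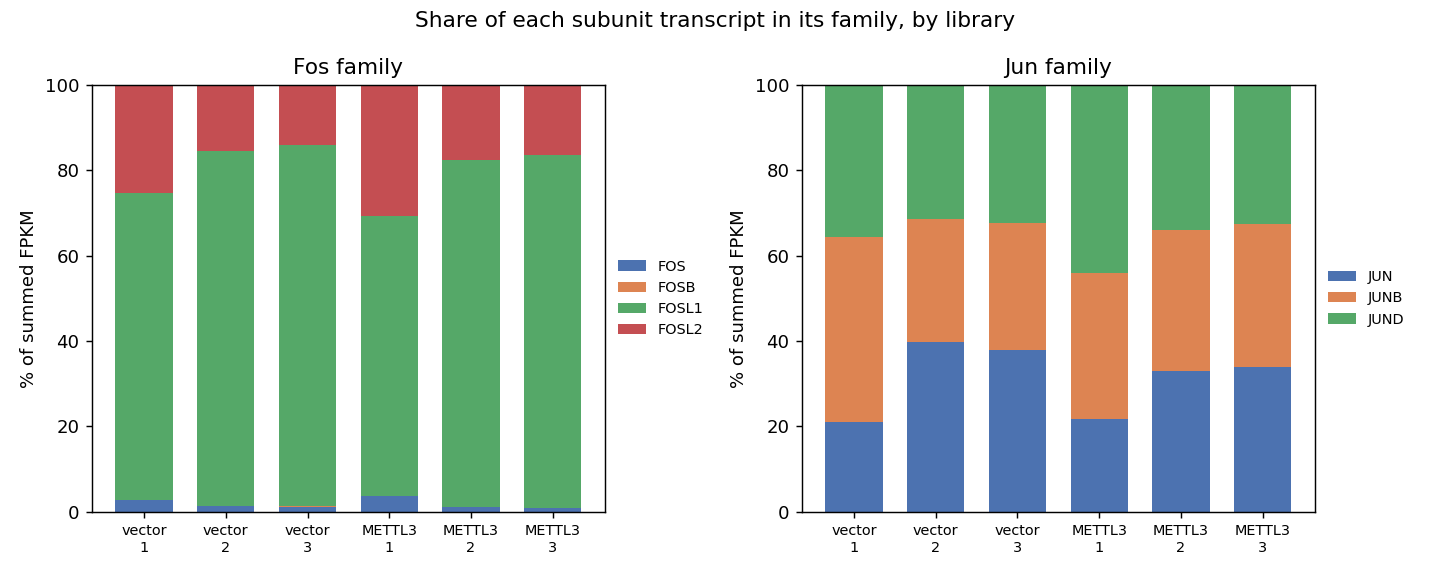
Share of each subunit transcript in the summed FPKM of its family, in percent, for the 6 libraries (left, Fos family; right, Jun family). FOSL1 fills 65.5% to 84.6% of each Fos bar, and the JUN segment is smallest in both replicate 1 libraries, at 20.9% and 21.7%.

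To ask whether METTL3 overexpression changed these genes, the groups were compared over all 6 libraries with edgeR's quasi-likelihood test across 22038 genes. None of the 10 members passed an adjusted p-value of 0.05. The same held for every gene tested (0% of 22038), the overexpressed METTL3 included. The members' adjusted p-values ran from 0.593 to 0.986. FOSL2 alone, 1 of the 10, had an unadjusted p-value under 0.05, as had 8.3% of all genes. DESeq2, which called 1.19% of the genes it tested, called 0 members. The fitted change was above 0 for 7 members and below 0 for 3, with a median log2 fold change of 0.10 against -0.02 over all genes. The groups did not overlap for 1 member, FOSL2, and for 17.4% of all genes. In bulk RNA, fewer cells that express a gene and less transcript per cell cannot be told apart. Coordinates below are on hg38.

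**Figure D2:**
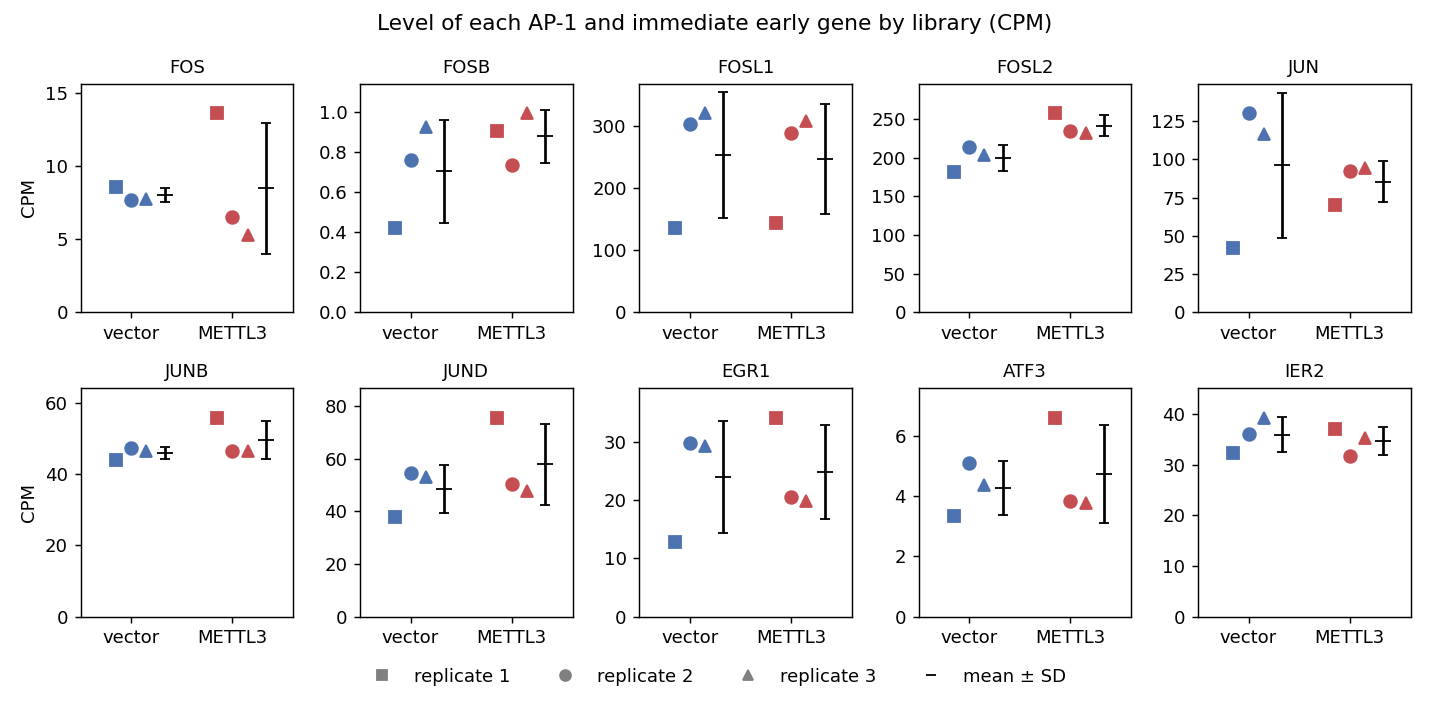
Level of each member in CPM in the 3 vector and 3 METTL3 libraries (symbols by replicate number; black bars, mean ± SD, n = 3; all axes start at 0). FOSL2 is the member whose groups do not overlap, while vector replicate 1 (square) is the lowest vector library for every member except FOS.

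FOS (ENSG00000170345.10, chromosome 14, 75278826 to 75282230) encodes the partner of JUN in the classical serum-induced dimer, and its transcript carries the dense ATTTA run shown above. Its counts were 1531, 810 and 536 in METTL3 replicates 1, 2 and 3 and 809, 869 and 857 in vector replicates 1, 2 and 3. As CPM these were 13.6, 6.54 and 5.31 with METTL3 and 8.53, 7.69 and 7.76 with the vector. The vector libraries were close together, and the METTL3 libraries lay on both sides of them. The log2 fold change was 0.08 over all 6 libraries (standard error, SE, 0.32, edgeR adjusted p = 0.951). Replicates 2 and 3 alone gave a fall of FOS by 0.38 on the log2 scale (SE 0.112, edgeR adjusted p = 0.0339), and the replicate 1 pair a ratio of 1.59.

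FOSL1 (ENSG00000175592.9, chromosome 11, 65892049 to 65900573), the main Fos transcript here, differed more between replicate 1 and the other replicates than between the groups. It reached 145, 288 and 308 CPM in METTL3 replicates 1, 2 and 3 and 136, 303 and 320.4 CPM in vector replicates 1, 2 and 3. Both replicate 1 libraries were below the other 4, at 0.485 of the mean of replicates 2 and 3 with METTL3 and at 0.436 with the vector. The log2 fold change between the groups was -0.03 (SE 0.362, edgeR adjusted p = 0.986) and -0.07 in replicates 2 and 3 (SE 0.0554, edgeR adjusted p = 0.51). FOSB (ENSG00000125740.14, chromosome 19, 45467995 to 45475179), the remaining Fos gene, was near the lower limit of the table, with 102, 91 and 100 counts in METTL3 replicates 1, 2 and 3 and 40, 86 and 102 counts in vector replicates 1, 2 and 3. Its log2 fold change was 0.31 (SE 0.318, edgeR adjusted p = 0.78), or 0.03 in replicates 2 and 3 (SE 0.251, edgeR adjusted p = 0.967), and vector replicate 1 was its lowest library.

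FOSL2 (ENSG00000075426.12, chromosome 2, 28392448 to 28417317), a Fos protein with a long 3′ UTR, was the member whose groups did not overlap. It measured 257, 235 and 232 CPM in METTL3 replicates 1, 2 and 3 and 182, 214 and 203 CPM in vector replicates 1, 2 and 3. The lowest METTL3 library was above the highest vector library. The log2 fold change was 0.27 (SE 0.116, edgeR adjusted p = 0.593), which did not pass. In replicates 2 and 3 it was 0.16 (SE 0.0519, edgeR adjusted p = 0.0511), just outside the threshold. With GC content and length trends fitted per library and removed there, it was 0.20 and passed (edgeR adjusted p = 0.00132).

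JUN (ENSG00000177606.8, chromosome 1, 58776845 to 58784048), the founding AP-1 subunit, which also binds its own promoter, also differed in opposite directions in replicate 1 and in the other replicates. It stood at 70.0, 92.2 and 94.0 CPM in METTL3 replicates 1, 2 and 3, compared with 41.9, 129.9 and 116 CPM in vector replicates 1, 2 and 3. The vector libraries lay on either side of all METTL3 libraries. The log2 fold change was -0.17 over all 6 libraries (SE 0.36, edgeR adjusted p = 0.902). With replicates 2 and 3 alone JUN fell by 0.41 on the log2 scale (SE 0.0588, edgeR adjusted p = 0.00026). The replicate 1 pair went the other way, with a ratio of METTL3 to vector of 1.67. JUN is among the genes that the study selected on these libraries, so its direction in replicates 2 and 3 is not independent evidence.

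Of the other Jun proteins, JUNB (ENSG00000171223.6, chromosome 19, 12791486 to 12793315), which can restrain JUN, varied little. It was at 55.9, 46.4 and 46.5 CPM in METTL3 replicates 1, 2 and 3, compared with 43.99, 47.5 and 46.4 CPM in vector replicates 1, 2 and 3, a log2 fold change of 0.11 (SE 0.117, edgeR adjusted p = 0.79). In replicates 2 and 3 it was -0.02 (SE 0.0557, edgeR adjusted p = 0.889). JUND (ENSG00000130522.6, chromosome 19, 18279694 to 18281622), the Jun protein found in resting cells, was at 75.7, 50.3 and 48.0 CPM in METTL3 replicates 1, 2 and 3, compared with 37.9, 54.7 and 53.1 CPM in vector replicates 1, 2 and 3. Its METTL3 replicate 1 was the highest and its vector replicate 1 the lowest library, and the groups overlapped. The fitted log2 fold change of JUND was 0.26 (SE 0.21, edgeR adjusted p = 0.728), and -0.13 in replicates 2 and 3 (SE 0.0571, edgeR adjusted p = 0.143). Exons of a gene on the opposite strand cover 14.2% of the exonic bases of JUNB, and the strand setting of the counting is not given in the sources used here, so part of its reads is uncertain.

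EGR1 (ENSG00000120738.8, chromosome 5, 138465479 to 138469303), a zinc finger transcription factor induced through serum response factor, had the largest difference of the 10 between the replicate 1 libraries. Its level was 34.1, 20.5 and 19.8 CPM in METTL3 replicates 1, 2 and 3, and 12.8, 29.7 and 29.2 CPM in vector replicates 1, 2 and 3. The highest and the lowest library were thus both replicate 1, one from each group, and the groups overlapped. Over all 6 libraries the log2 fold change was 0.05 (SE 0.333, edgeR adjusted p = 0.974). In replicates 2 and 3 alone EGR1 fell by 0.55 on the log2 scale (SE 0.0649, edgeR adjusted p = 4.40e-05), a ratio of means of 0.684. Within replicate 1 the ratio of METTL3 to vector was 2.66. The promoter with 2 CArG boxes printed above belongs to this gene.

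ATF3 (ENSG00000162772.17, chromosome 1, 212565334 to 212620777), a stress-induced repressor of the same zipper class, was at 6.60, 3.82 and 3.77 CPM in METTL3 replicates 1, 2 and 3, compared with 3.32, 5.09 and 4.35 CPM in vector replicates 1, 2 and 3. As with EGR1, the extremes were the replicate 1 libraries. Its log2 fold change was 0.15 over all 6 libraries (SE 0.269, edgeR adjusted p = 0.879) and -0.32 in replicates 2 and 3 (SE 0.123, edgeR adjusted p = 0.108). IER2 (ENSG00000160888.7, chromosome 19, 13150411 to 13154911) ranged from 31.8 to 37.1 CPM with METTL3 and from 32.3 to 39.3 CPM with the vector. The fitted difference was -0.05 (SE 0.123, edgeR adjusted p = 0.918), and -0.17 in replicates 2 and 3 (SE 0.0694, edgeR adjusted p = 0.115). Over IER2, 52.2% of the exonic bases lie opposite exons of 2 other annotated genes, so its reads are uncertain.

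The members were next compared between libraries of the same replicate number, although the values do not settle whether numbers 2 and 3 match between the groups. In replicate 1 all 10 were higher with METTL3, with log2 differences from 0.09 for FOSL1 to 1.41 for EGR1 and a median of 0.71. In replicate 2, 9 of the 10 were lower with METTL3, and in replicate 3, 7 were lower, with a median of -0.15 in each. For 7 members, FOS, FOSL1, JUN, JUND, EGR1, ATF3 and IER2, the METTL3 library was the higher one in replicate 1 and the lower one in replicates 2 and 3, a pattern held by 15.5% of the 22038 genes. The pattern was noticed in these values, and the difference between replicate 1 and the others was not tested. Both replicate 1 libraries were below the other 4 for FOSL1 and JUN (15.4% of all genes) and above them for FOS (17% of all genes).

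**Figure D3:**
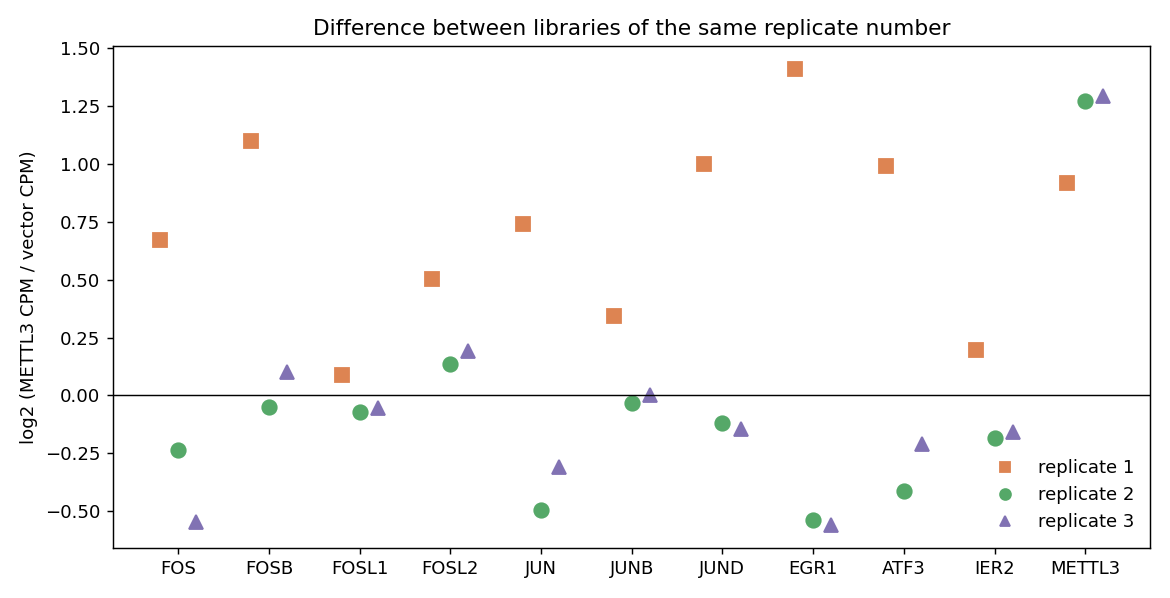
Log2 ratio of METTL3 to vector CPM within each replicate number, for the 10 members and METTL3. The replicate 1 squares lie above 0 for all 10 members, up to 1.41 for EGR1, whereas most circles and triangles of replicates 2 and 3 lie below 0, and METTL3 is above 0 in all 3 pairs.

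With replicates 2 and 3 of each group alone, 3 of the 10 members passed edgeR's test at an adjusted p-value of 0.05, against 15.2% of 22046 genes, and EGR1, JUN and FOS were all lower with METTL3, a direction called for 8.59% of genes. The groups did not overlap for 7 members there, and for 54.8% of all genes. With the GC content and length trends removed 4 members passed, EGR1, JUN and FOS as lower and FOSL2 as higher, against 22.3% of genes. The calls rest on 2 libraries per group, and replicate 1 was left out after it was seen to stand apart.

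**Figure D4:**
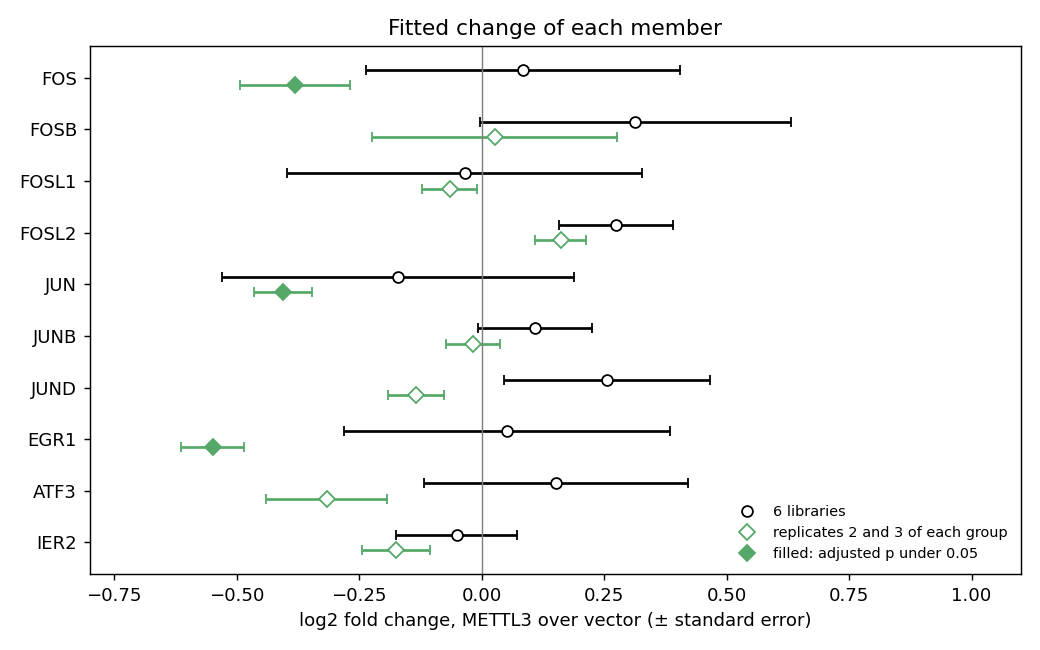
Fitted log2 fold change of each member, METTL3 over vector, with its standard error, from all 6 libraries (circles) and from replicates 2 and 3 of each group (diamonds; filled where the adjusted p-value is under 0.05). EGR1, JUN and FOS are filled, at -0.55, -0.41 and -0.38, while each of the 6-library circles is open.

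The replicate number itself was tested as a factor beside the group, with the same limit on how the numbers match. No member passed at an adjusted p-value of 0.05, where 0.0318% of all genes did, and FOSL1 came nearest (edgeR adjusted p = 0.09). FOSL1 and JUN, 2 of the 10, had unadjusted p-values under 0.05, as had 13.1% of all genes. FOSL1 passed with the GC content and length trends removed (edgeR adjusted p = 0.0283), where 1.34% of genes passed, and without a filter on low counts (edgeR adjusted p = 2.99e-07), where 3.44% did.

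The remaining genes of the pathway were taken from lists written by hand. Over all 6 libraries, none of their members passed edgeR's test. An unadjusted p-value below 0.05 was reached by 8.3% of all genes. In the lists it was reached by 2 of 11 other AP-1 subunits and 3 of 22 other immediate early genes. The same held for 2 of 20 upstream genes, 4 of 21 AP-1 targets and 0 of 16 decay factors. DESeq2 called 1.19% of the genes it tested. Among these lists it called 1 immediate early gene, NR4A2 (DESeq2 adjusted p = 0.017), and 1 target, IL6 (DESeq2 adjusted p = 0.00564). Among other AP-1 family subunits, 11 of 12 were tested, and 3 passed in replicates 2 and 3, where 15.2% of all genes did, with a list median of 0.08. Among them were BATF2 (-0.33, edgeR adjusted p = 0.00623), which was lower with METTL3, and MAFF (0.25, edgeR adjusted p = 0.0172), which was higher. BATF2 was named after its value was seen. MAFF, a small Maf protein without an activation domain, was at 39.2, 34.6 and 37.3 CPM in METTL3 replicates 1, 2 and 3, compared with 24.4, 31.0 and 29.3 CPM in vector replicates 1, 2 and 3, so its groups did not overlap. MAFK, another small Maf protein, had a log2 fold change of 0.24 over all 6 libraries (SE 0.136, edgeR adjusted p = 0.648) and of 0.14 in replicates 2 and 3 (edgeR adjusted p = 0.263), where it passed with the trends removed (0.24, edgeR adjusted p = 0.00328).

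Other immediate early genes also gave more lower than higher calls in replicates 2 and 3. Of 22 tested, 10 passed there, 8 lower and 2 higher with METTL3. Over all genes 15.2% passed, 1893 lower and 1469 higher, and the median was -0.16 for the list and -0.00 for all genes. Examples named after their values were seen are CCN1 (-0.32, edgeR adjusted p = 0.000552) and CCN2 (-0.44, edgeR adjusted p = 6.51e-05), matricellular proteins, and KLF10 (-0.33, edgeR adjusted p = 0.000486). In the replicate 1 pair CCN1, CCN2 and KLF10 were instead higher with METTL3, by 0.47, 0.48 and 0.03 on the log2 scale. Over all 6 libraries their log2 fold changes were -0.17, -0.31 and -0.22 (edgeR adjusted p = 0.913, 0.866 and 0.65). Like JUN, CCN1 and CCN2 were selected by the study on these libraries together with METTL3 knockdowns, in which it reported a rise. The study reported both as lower with METTL3, so their direction here is not independent evidence. ARC, an early gene best known from neurons, was at 4.31, 5.52 and 4.87 CPM in METTL3 replicates 1, 2 and 3, while the vector replicates held 4.58, 9.54 and 9.97 CPM. In replicates 2 and 3 it fell by 0.91 on the log2 scale (edgeR adjusted p = 2.73e-05). NR4A2, an orphan nuclear receptor, moved the other way. It was at 7.22, 6.11 and 5.85 CPM in METTL3 replicates 1, 2 and 3, compared with 3.27, 3.88 and 4.16 CPM in vector replicates 1, 2 and 3, with no overlap. Its log2 fold change was 0.76 over all 6 libraries (SE 0.174, edgeR adjusted p = 0.395) and 0.57 in replicates 2 and 3 (edgeR adjusted p = 0.00286). KLF4, an epithelial transcription factor, also passed as higher in replicates 2 and 3 (0.23, edgeR adjusted p = 0.0129), and its groups did not overlap over all 6 libraries.

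Kinases and serum response factors that act upstream of AP-1 showed a median of 0.01 in replicates 2 and 3, with 4 of 20 called against 15.2% of all genes. MRTFB, an actin-regulated partner of serum response factor, was higher there (0.39, edgeR adjusted p = 0.00182), whereas ELK3 (-0.28, edgeR adjusted p = 0.00178) and RPS6KA3 (-0.24, edgeR adjusted p = 0.0125), both named after their values were seen, were lower. MRTFA had a log2 fold change of 0.45 over all 6 libraries (SE 0.205, edgeR adjusted p = 0.61), and its groups did not overlap. Vector replicate 1 was its lowest library, at 11.5 CPM against 19.7 and 18.2 CPM in the other vector libraries. Without replicate 1 the change of MRTFA was 0.17 (edgeR adjusted p = 0.167), or 0.26 with the trends removed, which passed (edgeR adjusted p = 0.00838).

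Genes known as AP-1 targets gave calls in both directions in replicates 2 and 3, with 11 of 21 tested past the threshold, 5 higher and 6 lower, and a median of -0.25. Over all genes 15.2% passed there, and 8.59% as lower. Among the lower ones were MMP7, a matrix metalloproteinase (-0.73, edgeR adjusted p = 1.36e-06), and VIM, an intermediate filament of mesenchymal cells (-0.76, edgeR adjusted p = 3.24e-07), which was named after its values were seen. IL6, a cytokine, was higher, at 9.06, 5.73 and 4.99 CPM in METTL3 replicates 1, 2 and 3, compared with 4.08, 2.18 and 2.56 CPM in vector replicates 1, 2 and 3. The groups of IL6 did not overlap, and its log2 fold change was 1.17 over all 6 libraries (SE 0.306, edgeR adjusted p = 0.426) and 1.18 in replicates 2 and 3 (edgeR adjusted p = 3.86e-05). VEGFA, an angiogenic growth factor, was higher as well in replicates 2 and 3 (0.28, edgeR adjusted p = 0.00263).

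Factors that bind AU-rich or m6A-marked transcripts, listed with parts of the mRNA decay machinery such as CNOT1 and XRN1, gave few calls. In replicates 2 and 3, 0 of 16 passed edgeR's test, against 15.2% of all genes, and the median was 0.02. There 2 of 16 had an unadjusted p-value under 0.05, as had 5980 of 22046 genes. With the trends removed 2 of 16 passed, both higher, against 22.3% of all genes. YTHDF2, the m6A reader that recruits deadenylases, named after its values were seen, was at 88.2 to 92.3 CPM with METTL3 and 86.8 to 89.8 CPM with the vector. The genes named by the rule were ZFP36L2, HNRNPA2B1 and YTHDF3, with log2 fold changes of 0.36, -0.23 and -0.13 over all 6 libraries (edgeR adjusted p = 0.641, 0.697 and 0.724). Without replicate 1 their changes were 0.12, 0.02 and -0.13 (edgeR adjusted p = 0.19, 0.857 and 0.137), and ZFP36L2 passed there with the trends removed (0.16, edgeR adjusted p = 0.0153).

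**Figure D5:**
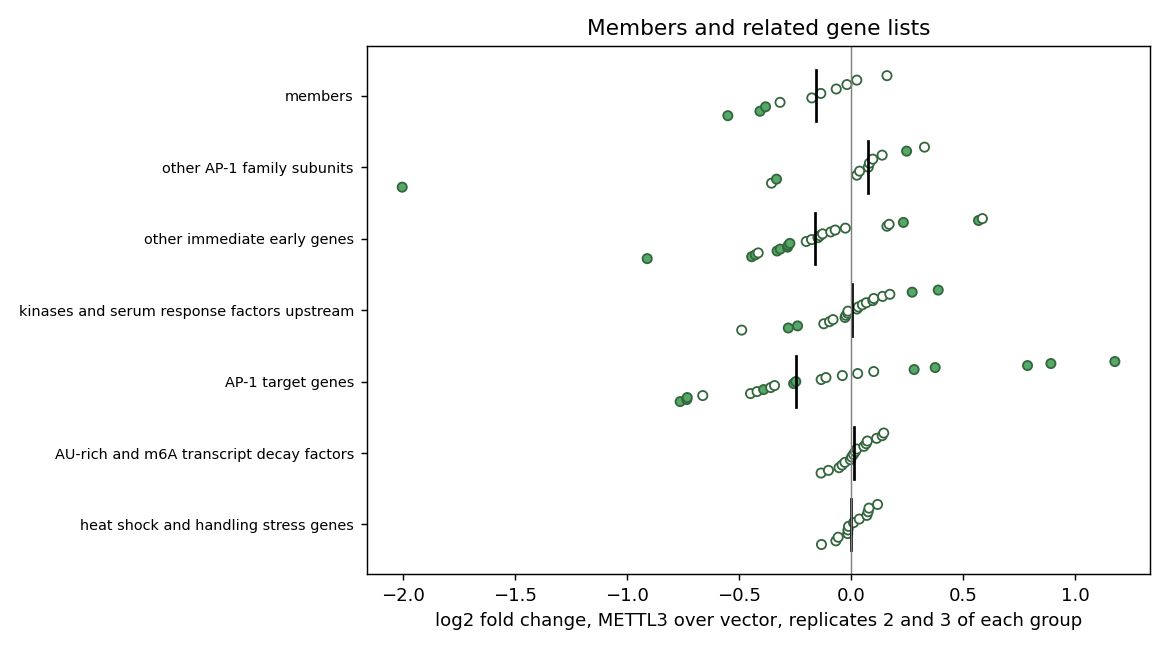
Log2 fold change, METTL3 over vector, in replicates 2 and 3 of each group for every tested gene of the 10 members and of the 6 related lists (points, spread vertically by rank; filled where the adjusted p-value is under 0.05; black bar, list median). The medians of the members, other immediate early genes and AP-1 targets lie at -0.15, -0.16 and -0.25, and those of the decay and heat shock lists at 0.02 and 0.00.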

How the data were processed

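Libraries of poly(A) RNA were made from OVCAR5 cells, 3 with METTL3 overexpression and 3 with empty vector. The authors used hisat2 for alignment to hg38 and Subread for counting by gene, and the deposited values are raw counts. The submitters' processing notes also name fastp. Versions, annotation release and strand setting are not given in the sources used here, and the labels and methods differ on the kit and on paired reads. Between 67.6% and 70.5% of counts from 1 to 20 were even, so a read pair may have been counted as 2, which was not tested, and counts divided by 2 were an alternative.

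Genes were named from GENCODE release 44 (GRCh38, the same build), which matched 60463 of 60649 rows. In R 4.3.3 with edgeR 4.0.16, genes passing filterByExpr were scaled by TMM and fitted together (glmQLFit, robust), and glmQLFTest p-values were adjusted by Benjamini-Hochberg and called at 0.05. The SE of a log2 fold change is its size divided by the root of the F statistic. DESeq2, which the authors used without naming a version, was run as version 1.42.0 as an alternative. It called 225 genes here, fewer than the study reported, and the cause was not tested. For METTL3, JUN, CCN1 and CCN2, the study's log2 fold changes lay nearer to replicates 2 and 3 alone than to all 6 libraries. Other genes were not compared. The functions were tested on simulated data. Same-numbered libraries deviated from their group means together (correlations 0.33, 0.12 and 0.17 for numbers 1 to 3, each over 0.1). The numbers were therefore taken as pairs, which comes from the values. Only the ratios within a replicate number, the replicate number test and the block alternatives used them. The other fits held the group alone and were not paired. METTL3 replicate 2 with vector replicate 3 gave 0.21, and METTL3 replicate 3 with vector replicate 2 gave 0.13. With replicate 1 apart in both groups, the check could not tell whether numbers 2 and 3 match between the groups. GC content and length trends were removed as offsets from splines with 5 degrees of freedom.

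The members, the 6 lists (106 entries) and the alternatives were chosen with earlier results of these data known. Named genes are the members, METTL3, the 3 genes of each list with at least 1 CPM and the largest log2 fold change relative to its standard error, and the 3 genes of at least 10 CPM nearest to FOS and to JUN in profile. No protein sequences were used. Some genes that this rule names are not reported here.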

Additional observations from a re-analysis of the deposited data

How the results depend on the processing

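Between all 6 libraries no member passed under DESeq2, other size factors, upper-quartile scaling, either other filter, counts divided by 2, the replicate number as a block (with or without GC content and length trends removed), those trends removed alone, or any 1 library left out. Other scalings moved the median of all genes by less than 0.1. Over all genes, 0 calls became 225 with DESeq2 (156 higher, 69 lower), 560 without a filter on low counts, 31 with the replicate block and GC content and length trends removed, and 0 to 367 with 1 library left out, the 367 without vector replicate 1. The replicate block alone gave 0 calls (2480 genes at an unadjusted p-value under 0.05) and turned FOS to -0.035, or -0.021 with the trends removed, and it changed no member's call.

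Replicates 2 and 3 alone gave 3362 calls, and 4917 with the trends removed (2795 higher, 2122 lower). These were 15.2% and 22.3% of the genes tested. Members called were 3 and 4 of 10, other AP-1 subunits 3 and 6 of 11, and other immediate early genes 10 and 13 of 22. Upstream kinases and factors gave 4 and 7 of 20, near the shares over all genes, and AP-1 targets 11 and 11 of 21. With the trends removed, the decay list had 2 of 16 and the heat shock list 1 of 12. The direction turned there for FOS (-0.38, and -0.36 with the trends removed), EGR1 (-0.55 and -0.50), ATF3 (-0.32 and -0.30), JUND (-0.13 and -0.0061) and JUNB (-0.017, without removal). Unfiltered, 1 other AP-1 subunit, 1 other immediate early gene, 1 upstream gene and 5 AP-1 targets passed, where 560 of 43096 genes did. DESeq2 called 1 other immediate early gene, NR4A2, and 1 target, IL6, and the block with trends removed called 1 target. Leaving out 1 library gave 0 to 1 calls in each of the AP-1 subunit, immediate early and target lists, the 1 without vector replicate 1.

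With 1 library left out, log2 fold changes ran from -0.41 to 0.35 for FOS, -0.33 to 0.25 for FOSL1, -0.53 to 0.13 for JUN, -0.25 to 0.26 for EGR1, -0.15 to 0.32 for ATF3 and -0.12 to 0.044 for IER2, each changing sign; FOSB, FOSL2, JUNB and JUND stayed above 0. FOS and ATF3 turned without METTL3 replicate 1, EGR1 without replicate 1 of either group, JUN without vector replicate 2 or 3, FOSL1 without METTL3 replicate 1, vector replicate 2 or vector replicate 3, and IER2 without METTL3 replicate 2 or vector replicate 3. For the replicate number, 7 calls became 295 with trends removed and 1482 unfiltered, with 1 member, FOSL1, in each. The causes were not tested. With the length of the canonical transcript, chosen after seeing the data, FOS, FOSB, ATF3 and IER2 were higher per length (3.80, 0.186, 2.19 and 17.0 FPKM with the vector), and the order of the 10 was unchanged. FOSB, at 40 to 102 counts, is limited by depth.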

Other observations

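Heat shock and handling stress genes, which many cells raise along with FOS and EGR1 when disturbed, gave few calls between the groups. Of 12 tested, 0 passed edgeR's quasi-likelihood test over all 6 libraries, where no gene of the table passed. An unadjusted p-value under 0.05 was reached there by 0 of 12, against 8.3% of all genes. In replicates 2 and 3, 0 of 12 passed, against 15.2% of all genes. There 1 of 12 had an unadjusted p-value under 0.05, as had 5980 of 22046 genes. With GC content and length trends removed, 1 of 12 passed in replicates 2 and 3, as higher, against 22.3% of all genes. The genes with the largest change relative to its error were HSP90AA1, DNAJA1 and HSPD1, with log2 fold changes of -0.49, -0.24 and -0.25 over all 6 libraries (adjusted p = 0.632, 0.693 and 0.712 from edgeR's test). Without replicate 1 these were -0.13, -0.014 and 0.038 (adjusted p = 0.19, 0.913 and 0.695 from edgeR's test). HSP90AA1, a cytosolic chaperone, was at 2356, 4286 and 4586 CPM in METTL3 replicates 1, 2 and 3, and the vector replicates held 6079, 4565 and 5138 CPM. The replicate 1 libraries were thus its lowest and its highest, in the order opposite to EGR1. HSPA1A, an inducible chaperone named after its values were seen, was at 80.3 and 50.4 CPM in METTL3 and vector replicate 1 whereas the remaining 4 libraries spanned 128 to 133 CPM. Its near-identical neighbour HSPA1B can share its reads.

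Profiles over the 6 libraries were compared by the root mean square difference of centred log2 CPM among genes of at least 10 CPM. Nearest to JUN were DUSP5, a phosphatase of ERK (0.0904), CBARP (0.0942) and CRIM1 (0.1001), where the median gene differed by 0.554. DUSP5 was at 77.9, 100.1 and 99.6 CPM in METTL3 replicates 1, 2 and 3, and the vector replicates held 47.2, 121 and 123 CPM. Nearest to FOS were MR1, a presenter of metabolite antigens (0.0925), the noncoding RNA LINC00963 (0.135) and ITGA1, an integrin subunit (0.142), where the median was 0.466. The measure ranks about 10031 genes over 6 points and is a description.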
